A study of Ovis aries with 8 samples.

Results

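JUNB, ZFP36 and EGR1 are 3 of the 1025 genes named on a sheep array. They were represented by 7 of the 15008 non-control probes, chosen by gene name or by a description naming one of these genes. Of these, 2 stood for JUNB, 2 for ZFP36 and 3 for EGR1, and 1 of the EGR1 probes was found by its description alone, which names the bovine gene. The arrays were hybridised with RNA from the lungs of 8 sheep fetuses at about 130 days of a 147-day gestation, 1 lung per array, from 4 sets of twins. In each set 1 fetus received aldosterone, 0.2 mg over 48 hours, and the other received vehicle, so that the groups were 4 aldosterone and 4 control lungs. Both groups had undergone surgery 5 days before the infusions began. All 7 probes were well above background on at least 4 arrays and were tested. The comparison asks whether 2 days of raised aldosterone alter these genes in a lung near birth.

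Immediate early genes are transcribed within minutes of a stimulus without any need for new protein, and most of their mRNAs decay quickly. JUNB is a member of the AP-1 family of leucine zipper transcription factors, which bind DNA as pairs of Jun and Fos proteins. EGR1 is a zinc finger transcription factor induced by growth factors, stretch and other stimuli through the MAP kinase pathway. ZFP36, also called tristetraprolin, is an RNA-binding protein that speeds the decay of mRNAs carrying AU-rich elements, among them the mRNA of tumour necrosis factor. Aldosterone acts through the mineralocorticoid receptor, a transcription factor best known in sodium-transporting epithelia.

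The probe sequences are shown because probes of the same gene gave different patterns over the lungs, and because pairs of them overlap and are not independent measurements. The JUNB probes share 59 of their 60 bases, and only the first 30 of each are printed, with the stop codon of the reading frame in capitals. The ZFP36 probe A_70_P030387 ends at the stop codon, in capitals, whereas A_70_P030386 lies in the stretch that encodes a zinc finger.
JUNB A_70_P041671: aagggacacgccttcTGAcgccccttatcc
JUNB A_70_P041672: caagggacacgccttcTGAcgccccttatc
ZFP36 A_70_P030387: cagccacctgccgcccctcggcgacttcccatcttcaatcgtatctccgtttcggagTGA
ZFP36 A_70_P030386: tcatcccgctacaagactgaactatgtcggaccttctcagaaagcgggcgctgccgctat

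The EGR1 probes A_70_P041731 and A_70_P041732 follow each other at the end of the zinc finger region and share 22 bases, in capitals. The EGR1 probe A_70_P023511 holds bases that encode the amino-terminal part of the protein, though not every base of it was placed, and shares no such run with them. No member probe shared a run of 20 bases with a probe of another gene.
EGR1 A_70_P041732: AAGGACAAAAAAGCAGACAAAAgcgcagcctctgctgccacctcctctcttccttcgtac
EGR1 A_70_P023511: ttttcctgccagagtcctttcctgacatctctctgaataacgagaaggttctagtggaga
EGR1 A_70_P041731: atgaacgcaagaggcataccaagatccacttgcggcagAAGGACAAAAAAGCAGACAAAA

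Between 76.49% and 85.41% of spots were well above background, and the highest share was that of control replicate 4. By Dixon's test that lung stood apart from its group more often than any other. It lay above the other controls for 262 of 12146 probes (2.16%) and below them for 375 (3.09%), against at most 0.815% in either direction for each of the other 7 lungs. It was the highest of the 8 lungs for 12.4% of these probes. By another measure, at least 2-fold above all 7 others, aldosterone replicate 2 led with 96 probes (0.79%), against 75 (0.617%) for control replicate 4. The surfactant genes SFTPA1, SFTPB, SFTPC and SFTPD, which mark the distal lung epithelium, were well above background in all 8 lungs. Results below are given with and without control replicate 4 where it bears on them.

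For JUNB no difference between the groups was detected beyond the spread of the lungs, and its most prominent feature was a single control lung. On probe A_70_P041671 the log2 level, which is the log2 intensity less the 75th percentile of its array, was -2.57, -1.13, -2.44 and -1.71 in aldosterone replicates 1 to 4. In control replicates 1 to 4 it was -2.11, -2.04, -2.67 and 1.11. The groups overlapped, with control replicate 4 far above the other 7 lungs and aldosterone replicate 2 next. In scanner units the intensity was 286, 671, 236 and 368 in aldosterone lungs and 384, 340, 223 and 2706 in control lungs, with a measurement error of about 10% per spot by the scanner software's own estimate. On the log2 scale control replicate 4 exceeded the next highest of the 8 by 2.24, or 4.72-fold.

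The mean JUNB level was -1.96 ± 0.67 in aldosterone lungs and -1.43 ± 1.72 in control lungs (SD, n = 4 each). The log2 difference, aldosterone minus control, was -0.53 ± 0.76 (SE, 95% interval -2.26 to 1.20), and its adjusted p in limma was 1. The second probe, shifted by 1 base, gave -2.51, -1.18, -2.47 and -1.84 in aldosterone lungs and -2.09, -2.15, -2.61 and 0.95 in control lungs, with a log2 difference of -0.52 ± 0.73. By same-numbered pair the differences of the first probe were -0.46, 0.91, 0.23 and -2.82, so that both signs occurred and the last pair held control replicate 4. Without control replicate 4 the difference had the opposite sign, at 0.31 (adjusted p in limma 0.877).

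ZFP36 showed the same lung at the top on both of its probes. On A_70_P030387 the log2 level was 0.23, 0.55, 0.90 and 1.23 in aldosterone lungs and 0.45, 0.75, 0.49 and 2.34 in control lungs. The groups overlapped, since the aldosterone lungs lay on both sides of the first 3 control lungs. Control replicate 4 was 2.17-fold above aldosterone replicate 4, the next highest. The means were 0.73 ± 0.43 in aldosterone lungs and 1.01 ± 0.90 in control lungs (SD, n = 4 each). The log2 difference was -0.28 ± 0.42 (SE, 95% interval -1.24 to 0.68) with an adjusted p of 1 in limma. It was 0.16 without control replicate 4.

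The zinc finger probe of ZFP36, A_70_P030386, had log2 levels of -4.76, -4.16, -5.21 and -4.35 in aldosterone lungs and of -4.21, -4.51, -5.18 and -2.04 in control lungs. Control replicate 4 was 4.33-fold above the next lung there, while the other 7 lungs spanned a 2.07-fold range. Its log2 difference was -0.64 ± 0.60, and 0.01 without control replicate 4. This probe was dim, at 34.5 to 304 scanner units, and the size of the lung's excess on it depended on the background correction. Over 6 ways of scaling and correcting the arrays it was 1.28-fold to 4.58-fold, against 2.17-fold to 2.35-fold for A_70_P030387 and 4.09-fold to 4.99-fold for JUNB probe A_70_P041671. Only the ways with normexp changed the background correction, and they gave 1.28-fold and 2.56-fold on A_70_P030386. The others differ only in the constant taken off each array, so they could change these folds little.

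EGR1 did not show that excess. Its probe A_70_P041732 had log2 levels of -3.33, -2.78, -2.73 and -2.64 in aldosterone lungs and of -2.87, -2.73, -2.92 and -2.47 in control lungs. The groups overlapped within a narrow band, with aldosterone replicate 1 lowest and control replicate 4 1.12-fold above the next lung. The means were -2.87 ± 0.31 in aldosterone lungs and -2.75 ± 0.20 in control lungs (SD, n = 4 each), with a log2 difference of -0.12 ± 0.19 (SE, 95% interval -0.55 to 0.30) and an adjusted p of 1 in limma. Without aldosterone replicate 1 the difference was 0.03.

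The other EGR1 probes varied more between lungs and in a different order. Log2 levels on A_70_P023511 were -6.10, -4.75, -6.22 and -5.01 in aldosterone lungs and -3.95, -5.09, -6.33 and -4.05 in control lungs. Here control replicate 1 was highest, control replicate 4 close behind it, and replicate 3 of both groups low. Probe A_70_P041731 gave -6.84, -4.54, -6.38 and -5.85 in aldosterone lungs and -5.27, -5.07, -6.30 and -4.33 in control lungs, with control replicate 4 and aldosterone replicate 2 highest. The log2 differences were -0.67 ± 0.56 and -0.66 ± 0.54, each with an adjusted p of 1 in limma, and the groups overlapped on each probe. Both probes were dim, between 14.8 and 108 scanner units, and the measurement error per spot reached 26.9%. A_70_P023511 was well above background in 4 aldosterone and 3 control lungs and A_70_P041731 in 2 aldosterone and 4 control lungs, so the lowest values are less certain. The size of both differences depended on single lungs. Without control replicate 4 they were -0.40 and -0.36. Without control replicate 3 A_70_P023511 was at -1.16 (unadjusted p in limma 0.032), and without aldosterone replicate 2 A_70_P041731 was at -1.11 (unadjusted p in limma 0.0369), with no adjusted p under the threshold. Without control replicate 1 the difference on A_70_P023511 was -0.37, and without aldosterone replicate 1 that on A_70_P041731 was -0.35.

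**Figure D1:**
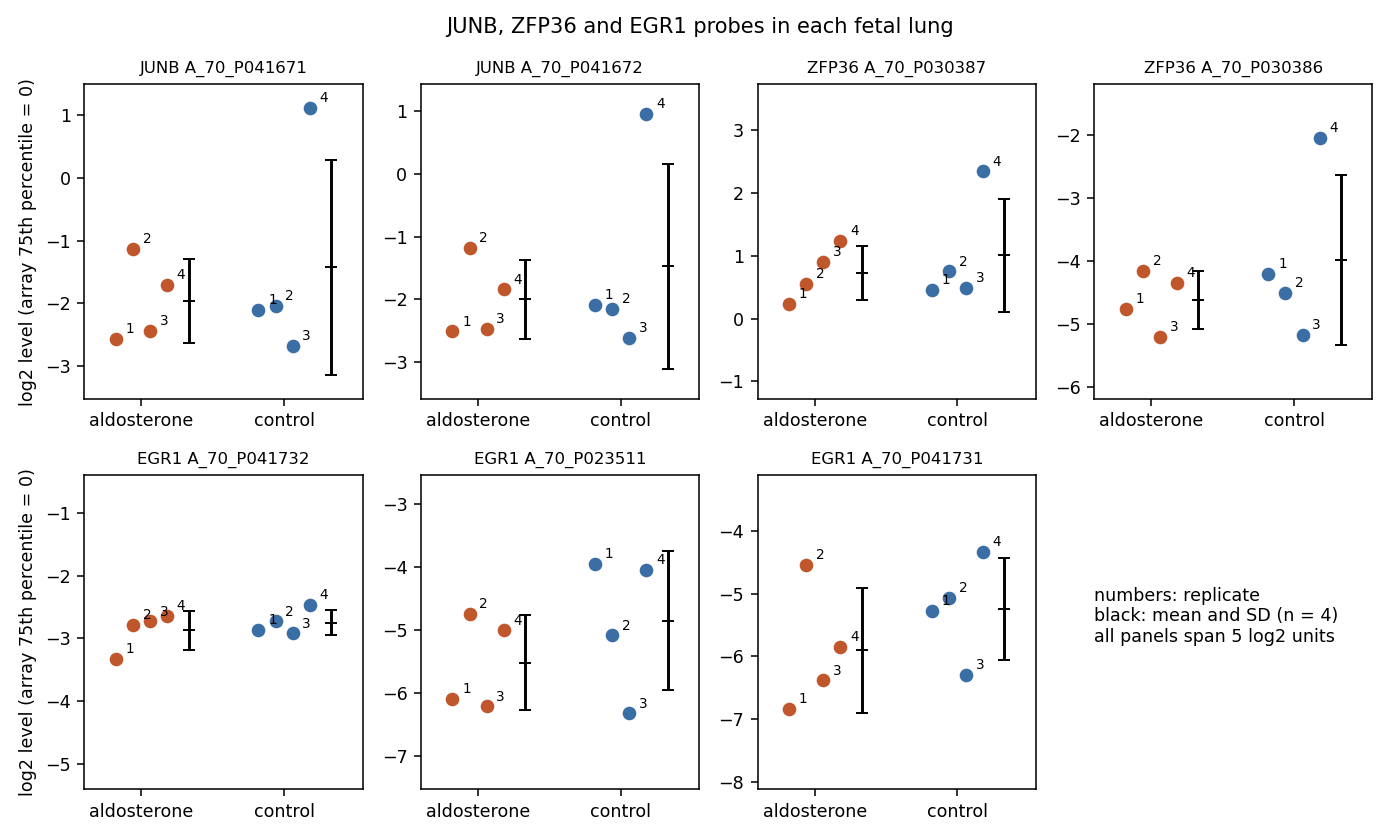
Log2 level of each JUNB, ZFP36 and EGR1 probe (vertical axis, 0 is the array's 75th percentile) in the 4 aldosterone and 4 control lungs, each point a lung marked by its replicate number, with the mean and SD in black. Control replicate 4 is at 1.11 and 0.95 on the JUNB probes and at 2.34 on ZFP36 A_70_P030387, while the EGR1 probe A_70_P041732 keeps all 8 lungs between -3.33 and -2.47.

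Together, 0 of the 7 probes passed the adjusted threshold of 0.05 in limma, as did 0 of the 12168 probes of the array (0.0%), although 228 had an unadjusted p under 0.05. None of the 7 was among the 73 probes (0.6%) that were lower after aldosterone at an unadjusted p under 0.05. All 7 had a lower mean in aldosterone lungs, where 48.5% of all probes did, but this did not hold under other settings. Without control replicate 4 the 4 JUNB and ZFP36 probes had higher means, at 0.31, 0.28, 0.16 and 0.01, where 48.0% of all probes were lower. ZFP36 A_70_P030387 was also at 0.041 with array weights, and EGR1 A_70_P041732 at 0.03 without aldosterone replicate 1. With normexp background correction and the 75th percentile, ZFP36 A_70_P030386 and the 3 EGR1 probes had higher means, and that setting moved the median of all probes to 0.17. The groups overlapped on each of the 7 probes, and on the whole array every aldosterone lung was below every control lung for 0.453% of probes. The 7 probes are fewer than 7 measurements, because of the overlaps given above and because probes of a gene read the same RNA.

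**Figure D2:**
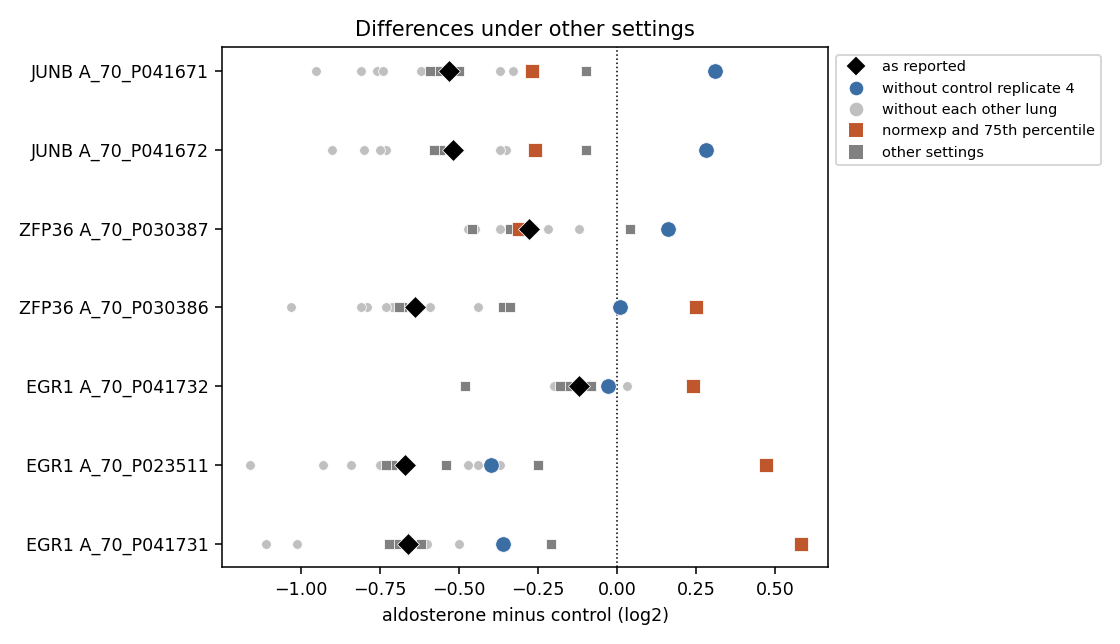
Log2 difference, aldosterone minus control, of each probe as reported (diamonds) and under other settings (circles for each lung left out, squares for other processing). The JUNB probes and ZFP36 A_70_P030387 lie right of 0 without control replicate 4, at 0.31, 0.28 and 0.16, and the EGR1 probes do so with normexp and the 75th percentile, at 0.24, 0.47 and 0.58.

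The range over the 8 lungs was wide for JUNB, but not for JUNB alone. The highest lung was 13.7-fold above the lowest on JUNB A_70_P041671, a wider range than that of 98.8% of the tested probes, whose median range was 1.77-fold. For ZFP36 the ranges were 4.32-fold on A_70_P030387 and 8.98-fold on A_70_P030386, and for EGR1 they were 1.82-fold on A_70_P041732, 5.21-fold on A_70_P023511 and 5.70-fold on A_70_P041731. In the same order they were wider than those of 93.6% and 97.7% of the tested probes for ZFP36, and of 53.5%, 95.3% and 95.9% for EGR1. The FOS probes described below had wider ranges than 99.1% to 99.7% of the tested probes, above JUNB. Without control replicate 4 the JUNB range was 2.91-fold and the ZFP36 ranges 1.99-fold and 2.07-fold, while those of EGR1 were 1.62-fold, 5.21-fold and 4.93-fold.

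The partners of JUNB in AP-1 were measured by further probes found by gene name, since 0 probe descriptions named c-jun or c-fos. FOS, the c-Fos subunit, had 4 probes, JUN, the c-Jun subunit, had 2, and JUND had 1. On the FOS probe A_70_P026731 the log2 level was 0.19, 2.61, -1.34 and 1.90 in aldosterone lungs and 2.85, 1.74, -1.19 and 2.30 in control lungs. The highest was control replicate 1 and replicate 3 was low in both groups, an 18.1-fold range, and control replicate 4 was below the top. Its log2 difference was -0.58 ± 1.04 (SE), and the other 3 FOS probes, with ranges of 16.5-fold to 40.9-fold, gave -0.37 to -0.18.

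The JUN probes differed in how control replicate 4 lay among the lungs. JUN A_70_P016313, whose sequence holds a run of 5 CAG copies found in 1 of the 15008 probes, had log2 levels of 2.44, 2.53, 3.43 and 3.03 in aldosterone lungs and 2.25, 2.84, 2.87 and 3.31 in control lungs. JUN A_70_P016311 had -2.01, -2.16, -2.18 and -1.94 in aldosterone lungs and -2.46, -2.13, -2.77 and -0.86 in control lungs, with control replicate 4 2.13-fold above the next lung. The repeat is in capitals in the first of these sequences.
JUN A_70_P016313: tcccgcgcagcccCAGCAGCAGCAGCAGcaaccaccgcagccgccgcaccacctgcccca
JUN A_70_P016311: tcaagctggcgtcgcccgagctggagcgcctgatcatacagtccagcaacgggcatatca

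The log2 differences were 0.04 ± 0.28 and -0.02 ± 0.36 for the JUN probes and 0.08 ± 0.19 for JUND. MYC, a transcription factor also induced early after growth stimuli, gave -0.08 ± 0.18 and -0.17 ± 0.15 on its probes. None of these passed the adjusted threshold in limma, and the intervals of the FOS probes, -2.94 to 1.78 for A_70_P026731, allow changes of several fold in either direction.

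**Figure D3:**
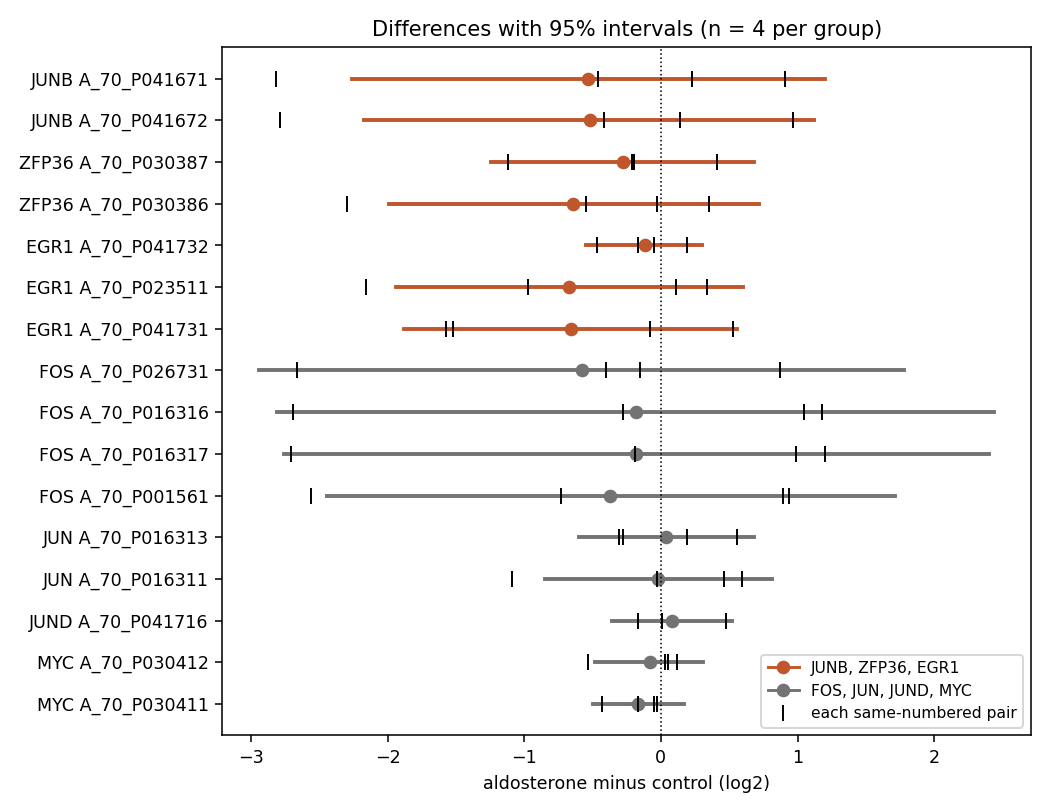
Log2 difference, aldosterone minus control, for each probe (points) with its 95% interval in limma from the unpaired fit (bars, n = 4 per group) and the 4 same-numbered pairs (ticks). Every interval spans 0, and the intervals of EGR1 A_70_P041732, JUND and MYC are the narrowest, from -0.55 to 0.30 for EGR1.

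Across the lungs, the probes fell into patterns that did not follow the genes. Control replicate 4 formed a cluster of its own for JUNB and ZFP36, so no pooled correlation over 8 lungs is given for these pairs, and the values below are over the other 7 lungs. The permutations treat these lungs as exchangeable, although 6 of them are 3 pairs of twins, so the p-values make no allowance for likeness between twins and may be too small. Of the 3 pairs of genes on their brightest probes, ZFP36 and EGR1 had Pearson's r = 0.821 (exact permutation p = 0.0244, adjusted over 3 pairs 0.0732) and Spearman's rho = 0.964 (exact p = 0.00278, adjusted 0.00834). Without the 2 lungs farthest from the median of ZFP36 the r was 0.904. On both probes aldosterone replicate 1 was lowest of the 7 lungs and aldosterone replicate 4 highest. The log2 75th percentile, taken off both levels, was highest in aldosterone replicate 1 (10.732) and lowest in aldosterone replicate 4 (10.233). Before scaling, EGR1 was highest of the 7 in control replicate 1, at 228 scanner units, against 193 in aldosterone replicate 4. The part of this shared scaling in the correlations was not tested. JUNB and EGR1 had r = 0.514 (exact p = 0.244, adjusted 0.366) and rho = 0.607 (exact p = 0.167, adjusted 0.251). JUNB and ZFP36 had r = 0.319 (exact p = 0.483, adjusted 0.483) and rho = 0.5 (exact p = 0.267, adjusted 0.267). Left out in the same way, the r was 0.721 for JUNB with EGR1 and 0.7 for JUNB with ZFP36.

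A further 18 pairs of probes, FOS A_70_P026731 included, were compared after their values had been seen. The zinc finger probe of ZFP36 followed FOS with r = 0.993 (exact p = 0.000595, adjusted over 18 pairs 0.00536; rho = 0.964, adjusted 0.025), and the amino-terminal EGR1 probe A_70_P023511 followed FOS with r = 0.945 (exact p = 0.000595, adjusted 0.00536; rho = 0.964, adjusted 0.025). Without the 2 farthest lungs these r were 0.970 and 0.959. The same 2 probes had r = 0.913 with each other (exact permutation p = 0.00456, adjusted 0.0274; rho = 0.929, adjusted 0.0405; r = 0.886 without the 2 farthest lungs). The remaining 15 pairs did not pass the adjusted 0.05 on r. Among them the 2 probes of ZFP36 had r = 0.046 with each other, and the EGR1 probe A_70_P041732 had r = 0.550 with A_70_P041731, with which it shares 22 bases, and 0.363 with A_70_P023511. ZFP36 A_70_P030387 had r = 0.075 with EGR1 A_70_P023511 and 0.111 with EGR1 A_70_P041731. The zinc finger probe of ZFP36 had r = 0.215 with EGR1 A_70_P041732 and 0.758 with EGR1 A_70_P041731. The relation of the brightest ZFP36 and EGR1 probes thus did not hold over all probes of these genes. Replicate 3 of both groups held the lowest levels on FOS and on both probes that followed it. Both of these probes were dim, at 17.2 to 304 scanner units over the lungs. EGR1 A_70_P041731, dim as well, had r = 0.792 with FOS (exact permutation p = 0.047, adjusted 0.106). The part of dimness in these relations was not tested.

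**Figure D4:**
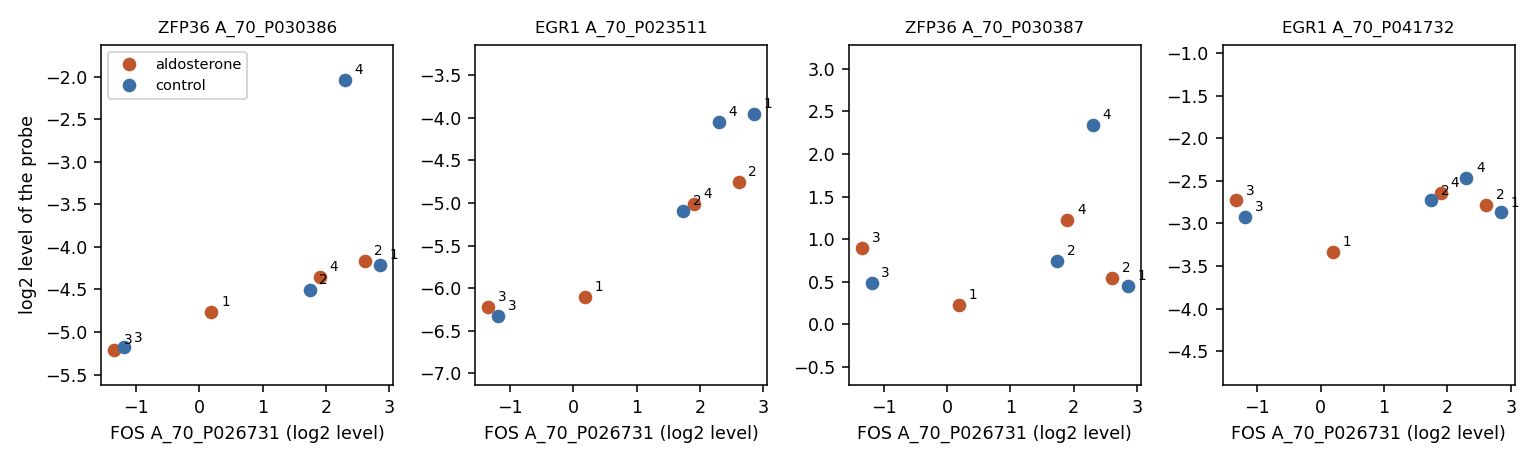
Log2 level of 4 probes (vertical axes, each spanning the same number of log2 units) against the log2 level of FOS A_70_P026731 (horizontal axis) in the aldosterone and control lungs, numbered by replicate. ZFP36 A_70_P030386, apart from control replicate 4, and EGR1 A_70_P023511 climb with FOS, while ZFP36 A_70_P030387 and EGR1 A_70_P041732 do not.

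For each gene the 5 named genes with the most similar levels were taken by Pearson's r over the 8 lungs, among 826 other genes, as a description. Chosen in this way, the genes tend to share the outlying lungs of the probe they were matched to. Those most like JUNB A_70_P041671 were SOD2, the mitochondrial superoxide dismutase, the cytokine IL1B, its antagonist IL1RN, TNF and the chemokine CXCL8, with r from 0.947 to 0.990. Over the 7 lungs other than control replicate 4 their r was 0.620 to 0.973, the lowest being that of CXCL8. IL1B had log2 levels of -4.45, -2.89, -4.22 and -3.29 in aldosterone lungs and -3.93, -4.14, -4.19 and 0.90 in control lungs. Control replicate 4 was above the next lung 13.8-fold for IL1B, 15.0-fold for TNF, 19.0-fold for CXCL8, 6.28-fold for IL1RN and 1.75-fold for SOD2.

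ZFP36 A_70_P030387 had as its nearest genes NFKBIA, the inhibitor of NF-kappa-B, the receptor TLR2, the transcription factor GATA3, the receptor CD40 and SMAD3, a mediator of TGF-beta signals, with r from 0.927 to 0.970. NFKBIA stood at 1.21, 1.20, 1.70 and 2.43 in aldosterone lungs and at 1.28, 1.22, 1.31 and 5.04 in control lungs. Control replicate 4 was 6.11-fold above the next lung for NFKBIA. Over the 7 other lungs the r of these genes with ZFP36 was 0.674 to 0.872. The nearest genes to EGR1 A_70_P041732 were NPC2, RABL4, GHRL, the ubiquitin gene UBB and MGLUR4, with r from 0.857 to 0.891, and control replicate 4 was at most 1.30-fold above the next lung for any of them. For these the r over 7 lungs was 0.847 to 0.918. None of these 15 genes passed the adjusted threshold between the groups in limma.

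**Figure D5:**
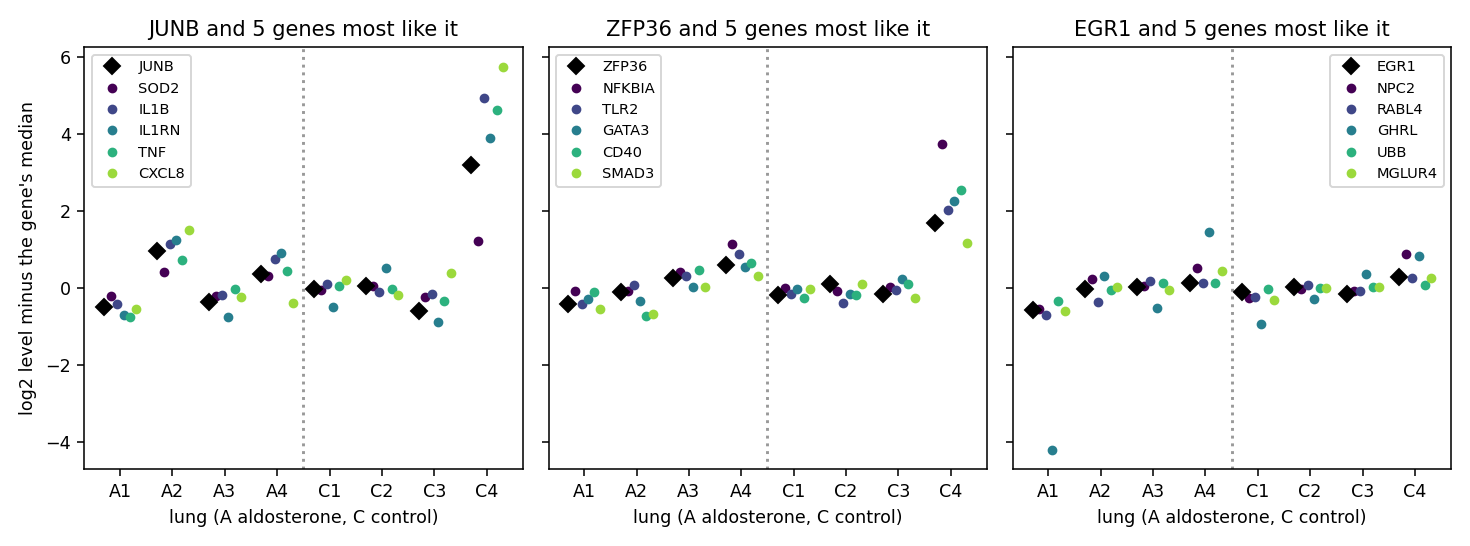
Log2 level of JUNB, ZFP36 and EGR1 (diamonds) and of the 5 named genes most like each (circles), less the gene's own median over 8 lungs, by lung. Control replicate 4 (C4) lies above the rest for JUNB, ZFP36 and their nearest genes, and A1 lies lowest for EGR1 and its nearest genes, likeness over the same lungs by which they were chosen.

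In the wider set of genes known from the same response, 0 of those measured passed the adjusted threshold in any list, and each list is described beside the 830 named genes of the array, whose median log2 difference was 0.026 and of which 44.5% were lower. Of 25 immediate early transcription factors listed, 6 were measured, 2 higher and 4 lower after aldosterone, with a median of -0.10 and of 0.06 without control replicate 4. The other rapidly induced genes, also 25, had 6 measured, 4 higher and 2 lower, with a median of 0.03, of 0.20 without control replicate 4 and of -0.10 without control replicate 3. NFKBIA differed by -0.58 ± 0.82, RGS2, a brake on G protein signals, by 0.02 ± 0.18, and MCL1, a short-lived survival factor, by 0.04 ± 0.24. These differences were 0.36, -0.05 and 0.23 without control replicate 4. Among upstream genes, the transcription factor CREB1 differed by -0.21 ± 0.27 and the growth factor receptor EGFR by -0.07 ± 0.21, which were 0.05 and 0.03 without that lung.

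Of the mRNAs known from other species as ZFP36 targets, 14 of 21 were measured, 3 with a higher and 11 with a lower mean after aldosterone, and the median log2 difference was -0.48. Without control replicate 4 the median was 0.17. That lung had the highest level for 10 of the 14 and was at least 2-fold above all 7 others for 7, where the same held for 17.8% and 2.54% of the 827 named genes with a value in every lung. PTGS2, the inducible cyclooxygenase, had -0.32, -0.18, -0.70 and -0.43 in aldosterone lungs and 0.11, -0.10, -0.32 and 1.73 in control lungs, a log2 difference of -0.76 ± 0.41. The chemokine CXCL10 differed by -0.80 ± 0.58, CXCL1 by 0.31 ± 0.52 and VEGFA, the endothelial growth factor, by -0.07 ± 0.26. The difference was -0.31 for PTGS2, -0.36 for CXCL10, 0.56 for CXCL1 and -0.10 for VEGFA without control replicate 4. The list and the 5 genes nearest JUNB share IL1B, TNF and CXCL8.

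Of the genes known as EGR1 targets 8 were measured, 3 with a higher and 5 with a lower mean and a median of -0.05, and control replicate 4 was highest for 1, the adhesion molecule ICAM1, at 3.04 against 0.43 to 0.85 in the other lungs. IGF2, a fetal growth factor, differed by 0.03 ± 0.18 and FGF2 by -0.13 ± 0.21, which were 0.07 and -0.23 without control replicate 4. Of the heat shock genes, the 4 measured had higher means with a median of 0.12 (-0.06 without control replicate 3), from HSPA5 at 0.06 ± 0.15 to CRYAB at 0.29 ± 0.41, though HSPA5 was just below 0 with the values of the authors' deposited table and with normexp and the 75th percentile, and control replicate 4 was highest for 1 of them, HSPA5. Among 9 genes of the corticosteroid receptors and their response, 5 were higher and 4 lower with a median of 0.07. The sodium pump subunit ATP1B1 differed by -0.05 ± 0.20, and the 11-beta-hydroxysteroid dehydrogenases HSD11B1 and HSD11B2 by -0.02 ± 0.42 and -0.15 ± 0.32. These were 0.02 for ATP1B1, 0.30 for HSD11B1 and -0.47 for HSD11B2 without control replicate 4.

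Markers of the cell types a lung sample can hold are given beside these values, because control replicate 4 led the JUNB and ZFP36 patterns. In whole tissue, fewer cells of a type and less RNA per cell cannot be told apart. For each list the levels of the measured genes were summed in multiples of the array's 75th percentile, so the brightest genes weigh most. The macrophage and monocyte sum (3 of 8 genes) was 0.349 in control replicate 4, inside the 0.249 to 0.473 of the other lungs, and the neutrophil sum (5 of 8 genes) was 6.32, inside 4.14 to 27.6. The macrophage and monocyte sum is mostly CD14, at a log2 level of -1.74 in control replicate 4, against -4.65 for CYBB and -6.82 for ITGAM. ITGAM was well above background in only 1 aldosterone and 3 control lungs. The alveolar epithelial sum of control replicate 4 (5 of 8 genes) was 632, above the 373 to 603 of the others. The T and natural killer cell sum (4 of 8 genes) was 0.675, below 1.01 to 1.70, and the red blood cell sum (3 of 5 genes) was 23.6, below 24.0 to 146. The red blood cell sum was led by HBB, lowest in control replicate 4 at a log2 level of 4.48. CA1 in that lung, at 0.38, lay inside the -2.42 to 1.34 of the others. AHSP, at -4.72, was above aldosterone replicate 4 at -5.10, so the low sum does not hold for each gene. Sums for airway epithelium, endothelium, smooth muscle and fibroblast, and B cells (2, 4, 2 and 1 genes) were inside the range of the other lungs. Between the groups, neutrophil genes were lower after aldosterone for 5 of 5, with a median of -1.07 (-1.42 without control replicate 4) and 0 past the adjusted threshold. In limma 3 of the 5 had an unadjusted p under 0.05, where 0.6% of all probes were lower at that p. All 5 were highest in the same lung, control replicate 2, so they are not separate measurements of a group difference. The part of cell content in the levels of JUNB, ZFP36 and EGR1 was not tested.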

How the data were processed

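The authors deposited 1 scanner file per array with linear spot intensity. Per the file headers the authors used Agilent Feature Extraction 10.1.1.1, which subtracted background. The log2 values of the authors' deposited table equal that processed signal, logged, with a different constant taken off each array. From the processed intensity, log2 less each array's 75th percentile over non-control spots was computed, flagged spots were left out and spots of a probe averaged. The filter kept probes that 4 or more of the 8 arrays measured well above background (12168 of 15008). Names came from the files and a RefSeq gene table used for names only. Groups were compared with limma 3.58.1 in R 4.3.3 (lmFit and eBayes, two-sided, Benjamini-Hochberg over all kept probes, threshold 0.05). The main fit held the group alone and made no use of the pairs, so its SE and intervals are unpaired. The fit with the replicate number as a block was an alternative.

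The brightest probe of a gene stands for it, and all probes of JUNB, ZFP36 and EGR1 are given. For genes of the lists only the brightest probe is given, though many had a further kept probe. Among the list genes whose differences are given, the further probe of RGS2 and that of IGF2 had a difference of the opposite sign. For other lists, up to 4 of the brightest measured members are named, and for each gene the 5 most like it; some are not reported here. JUNB, ZFP36, EGR1 and the lists were chosen with earlier results of these data known. Probe placement on the coding sequence rests on the known human proteins. After removal of group means, same-numbered arrays correlated at 0.446, 0.275, 0.28 and 0.538 over 12146 probes, each above 0.1, so with the labelled twin design the numbers were taken as pairs. Different-numbered arrays lay between -0.449 and 0.204, and 2 of those also exceeded 0.1. All arrays shared 1 slide and 1 scan.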

Additional observations from a re-analysis of the deposited data

Results flagged for a closer look

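Dixon's test was applied to 32 groups of 4 lungs on 16 probes, those of FOS, JUN, JUND and MYC included. It marked 3 of them, and chance flags about 1 in 20 such groups. It marked control replicate 4 above the other controls on both JUNB probes, at a log2 level of 1.11 on A_70_P041671, where the nearest control was at -2.04, and of 0.95 on A_70_P041672, where the nearest was at -2.09. The JUNB probes overlap almost fully, so these are not separate marks. It also marked the same lung on ZFP36 A_70_P030387, at 2.34 with the nearest control at 0.75. On the zinc finger probe of ZFP36 the lung was at -2.04 against -4.21 for the nearest control, which the test did not mark. Control replicate 4 was marked above its group for 2.16% of all probes.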

How the results depend on the processing

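The differences were recomputed under 18 to 20 alternatives, and no member probe passed the adjusted threshold in limma in any of them, nor did any probe of the array (0 calls under each). With the replicate block, the paired analysis gave -0.53 ± 0.58 for JUNB (SE, adjusted p in limma 0.892), -0.28 ± 0.24 for ZFP36 (0.879) and -0.12 ± 0.14 for EGR1 (0.896). These SE were smaller than those of the unpaired fit. The block changed no call, though 539 probes then had an unadjusted p under 0.05, against 228 without it. That number was 932 with array weights and 1256 with normexp and the 75th percentile, a setting that moved the median log2 difference of all probes to 0.17.

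Leaving out 1 lung in turn gave -0.95 to 0.31 for JUNB, -0.47 to 0.16 for ZFP36 and -0.20 to 0.03 for EGR1. The ranges were -0.90 to 0.28 on JUNB A_70_P041672, -1.03 to 0.0104 on ZFP36 A_70_P030386, -1.16 to -0.37 on EGR1 A_70_P023511 and -1.11 to -0.35 on EGR1 A_70_P041731. The sign turned without control replicate 4 for JUNB (0.31 and, on A_70_P041672, 0.28) and ZFP36 (0.16 and, on A_70_P030386, 0.0104), and without aldosterone replicate 1 for EGR1 (0.03). With array weights ZFP36 was at 0.041, JUNB at -0.10 and EGR1 at -0.03, and with the mean of the gene's probes EGR1 was at -0.48 and ZFP36 at -0.46. With normexp and the 75th percentile, EGR1 was at 0.24, A_70_P023511 at 0.47, A_70_P041731 at 0.58 and ZFP36 A_70_P030386 at 0.25, beside that shift of 0.17 in all probes. The cause was not tested. With the row of the slide as a block the differences were -0.53, -0.28 and -0.12 for JUNB, ZFP36 and EGR1. A filter asking for all 8 arrays left no value for the dim EGR1 probes. The r of ZFP36 with EGR1 was 0.814 with median centring and 0.805 with the authors' values. Both settings also take a constant off each array, so they cannot show what part shared scaling has in that r. The lowest unadjusted p of any member under an alternative was 0.032. For the 7 gene lists, 15 of 70 recomputed medians had the opposite sign to the reported one, in each of the 7 lists at least once, among them 0.17 for ZFP36 targets without control replicate 4. By more than the spread between pairs, 2 of the 70 moved, both of the corticosteroid list. They moved to -0.06 without aldosterone replicate 3 and to -0.12 without aldosterone replicate 4. That spread was taken over all pairs, the one with control replicate 4 included. For lists led by that lung it therefore cannot tell whether leaving the lung out moved the median. The ZFP36 targets, which went from -0.48 to 0.17 without it, were not counted as moved.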
